A study of Mus musculus with 4 samples.

Results

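Heat shock chaperones are proteins that help other proteins to fold, keep damaged proteins from clumping and hand them on for refolding or breakdown. HSP70 proteins bind exposed stretches of a client protein in cycles driven by ATP, J-domain proteins bring clients to them, HSP110 acts as their nucleotide exchange factor, HSP90 takes over clients such as kinases and steroid receptors at a later stage, and a separate chaperonin folds proteins inside mitochondria. Heat, toxic agents and other stresses activate the transcription factor HSF1, which binds heat shock elements in front of these genes, and the inducible HSP70 genes are known to respond most steeply, also during the enzymatic digestion and sorting that tissue macrophages go through before their RNA is taken. The set described here comprised 10 genes, chosen by name: the HSP70 genes Hspa1a, Hspa1b and Hspa8, the HSP110 gene Hsph1, the J-domain genes Dnajb1 and Dnaja1, the HSP90 genes Hsp90aa1 and Hsp90ab1, and the mitochondrial chaperonin genes Hspd1 and Hspe1. Their Ensembl identifiers were found through GENCODE M21 among the 54146 genes of the count table, and all 10 of the 10 passed the filter on low counts.

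The transcripts were counted in tumor-associated macrophages (TAMs) from MCA205 tumors, a transplanted mouse fibrosarcoma. Female C57BL/6 mice of 8 to 16 weeks received MCA205 cells under the skin of the right flank, and no transgene or other allele was named for either group. Control mice, labelled vehicle, drank water without the drug, and treated mice drank water with propranolol, a blocker of beta-adrenergic receptors, at 0.5 g/L from the day of tumor inoculation on. TAMs were enriched with CD45 microbeads and sorted as live CD11b+F4/80+ cells, and polyadenylated RNA with an integrity number above 7.5 was sequenced from 2 libraries per group. The sources name the 2 libraries of a group as replicates without saying how many mice went into each, so that p-values measure the spread between these libraries.

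The libraries held 13798249 counts (control replicate 1), 23018142 counts (control replicate 2), 39818103 counts (propranolol replicate 1) and 16424081 counts (propranolol replicate 2). Of the 2 genes whose products were used for sorting, Adgre1, which encodes F4/80, had 974 and 1007 CPM (counts scaled to the TMM-normalized size of the library, per 1000000 counts) in control TAMs and 1150 and 1098 CPM in TAMs from treated mice. Itgam, which encodes CD11b, had 358 and 351 CPM in control TAMs and 368.5 and 312 CPM in TAMs from treated mice. Without a GC correction, neither gene passed the edgeR test (log2 fold change 0.18, adjusted p = 0.117, for Adgre1, and -0.06, adjusted p = 0.683, for Itgam). After the GC correction described below, Adgre1 passed the test at 0.40 (edgeR adjusted p = 0.0113), under a 1.5-fold change. Itgam stood at 0.025 with the correction (edgeR adjusted p = 0.892). One library stood apart in the genes of fibroblasts and tumor cells. The summed level of 6 fibroblast and tumor cell genes was 2705 CPM in control replicate 1, compared to 1011 CPM in control replicate 2 and 608.5 and 663 CPM in the propranolol libraries. Calls of named genes that change without control replicate 1 are therefore given both ways. The propranolol libraries were not alike in lymphoid genes either. Replicates 1 and 2 had summed levels of 103 and 59.4 CPM for T cell genes and of 53.4 and 27.3 CPM for NK cell genes.

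The 10 chaperones did not move as one group. In TAMs from propranolol treated mice the 3 HSP70 genes were higher, by 2.28-fold (Hspa1b), 2.04-fold (Hspa1a) and 1.61-fold (Hspa8). The J-domain gene Dnaja1 and the HSP90 gene Hsp90aa1 were lower, at 0.605 and 0.661 of the control level, but both calls were lost after a correction for the GC content of the genes, described below. The other 5 genes stayed below the threshold of a 1.5-fold change. The call required an adjusted p under 0.05 in the edgeR quasi-likelihood test (Benjamini-Hochberg over all 14688 tested genes) together with a change of more than 1.5-fold. By this rule 27.8% of all tested genes were changed (12.2% higher and 15.6% lower), next to 5 of the 10 chaperones, 3 higher and 2 lower. Without the fold threshold, 7 chaperones had an adjusted p under 0.05 (4 higher and 3 lower), against 42.2% of all tested genes (21.8% higher and 20.4% lower). The median log2 fold change was 0.02 over the chaperones and -0.02 over all tested genes.

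**Figure D1:**
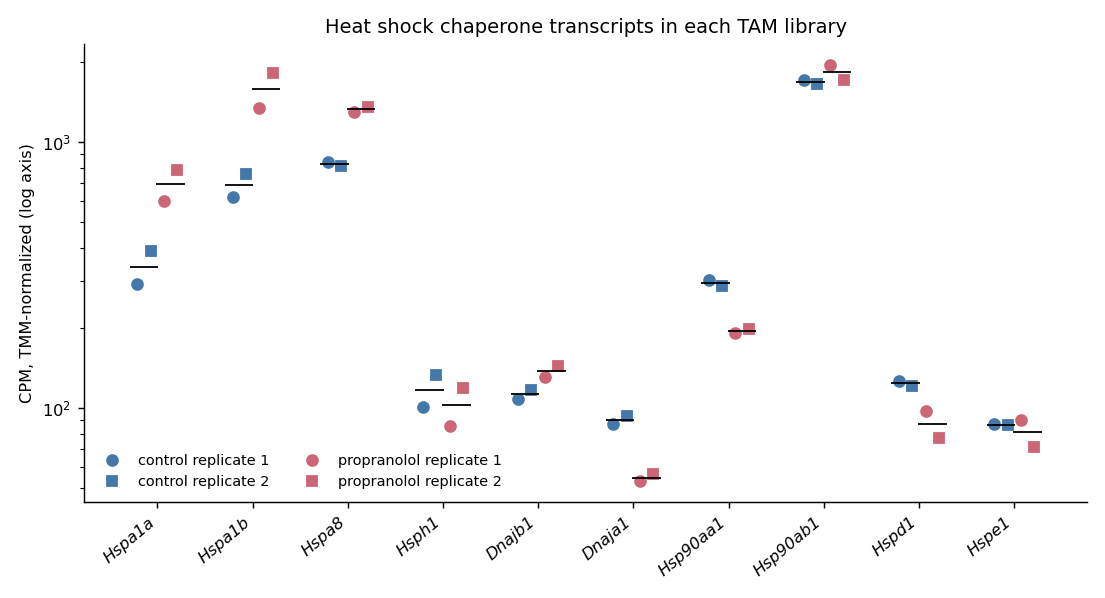
Expression of the 10 chaperone genes in each TAM library, as TMM-normalized CPM on a log axis, with circles for replicate 1, squares for replicate 2 and a bar at each group mean (n = 2 libraries). Both propranolol libraries lie above both control libraries for Hspa1a, Hspa1b, Hspa8 and Dnajb1 and below them for Dnaja1, Hsp90aa1 and Hspd1, and the groups overlap for Hsph1, Hsp90ab1 and Hspe1.

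The stress-inducible HSP70 is encoded by Hspa1a and Hspa1b, neighboring genes without introns on chromosome 17 of GRCm38 that give nearly the same protein. Hspa1a (ENSMUSG00000091971.3) lies at chr17:34969190-34972156 and Hspa1b (ENSMUSG00000090877.3) at chr17:34956436-34959238, both on the reverse strand. In the RefSeq promoter table for GRCm38.p6, the 250 bases in front of their start sites were identical at 247 positions and differed at 3. Both contain the same pair of heat shock units. The sequences below are shown since these are the 2 most increased chaperones without the GC correction. The capitals mark the match to GAANNTTC, which begins 104 bases before the start site of each gene.
Hspa1a, chr17:34972227-34972286, reverse strand: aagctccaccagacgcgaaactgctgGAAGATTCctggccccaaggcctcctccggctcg
Hspa1b, chr17:34959309-34959368, reverse strand: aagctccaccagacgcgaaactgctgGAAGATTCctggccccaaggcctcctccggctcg
The 60 bases are the same in both genes and lie outside annotated exons. GAANNTTC, which reads the same on both strands, was found in 6.69% of the 32851 promoters of the table, and its counterpart TTCNNGAA in 7.17%. A match describes the letters of this window and no binding was measured.

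Hspa1b was the more abundant gene of the pair in every library, in CPM as well as per length. It had 622 CPM and 759.8 CPM in the control libraries and 1340 CPM and 1817 CPM in the propranolol libraries. Hspa1a had 292 CPM and 388 CPM in the control libraries and 598 CPM and 788 CPM in the propranolol libraries. The groups did not overlap for either gene, as was the case for 72.6% of all tested genes, and within each group replicate 2 was the higher library for both. Hspa1b rose from 691 ± 97.7 CPM to 1579 ± 338 CPM (SD, n = 2 libraries, log2 fold change 1.19, SE 0.147, edgeR adjusted p = 0.00028). Hspa1a rose from 340.0 ± 67.4 CPM to 693 ± 134 CPM (log2 fold change 1.03, SE 0.156, edgeR adjusted p = 0.000752). Their log2 fold changes were at the 98.5th and 97.3rd percentile of all tested genes. Both were called under every alternative run in which they were tested as separate genes at the 1.5-fold threshold, with log2 fold changes between 0.84 and 1.40 for Hspa1b and between 0.68 and 1.26 for Hspa1a. Without control replicate 1 they were 1.11 and 0.90.

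The division of counts between Hspa1a and Hspa1b is uncertain. Of the stretches of 50 bases in the Hspa1a transcripts, 58.8% also occur in Hspa1b, and 62.3% of those in Hspa1b occur in Hspa1a, and alignments of low mapping quality, which include pairs that fit both genes equally well, had been removed before counting. Summed as 1 gene, they had 914 and 1147 CPM in control TAMs and 1938 and 2606 CPM in TAMs from treated mice. The sum rose 2.20-fold, with a log2 fold change of 1.14 (SE 0.148, edgeR adjusted p = 0.000345). The ratio of Hspa1b to Hspa1a per annotated exon length, in TPM, was 2.25 and 2.08 in control TAMs and 2.37 and 2.44 in TAMs from treated mice. Hspa1a also overlaps Gm20481 by 564 exonic bases on the opposite strand, a gene with 0 counts in all 4 libraries.

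Hspa8 encodes HSC70, the constitutive HSP70 of the cytosol, which also works in chaperone-mediated autophagy and in the uncoating of clathrin vesicles. The gene (ENSMUSG00000015656.17, chr9:40800984-40810087, forward strand) had 839.8 CPM and 814 CPM in the control libraries and 1299 CPM and 1359 CPM in the propranolol libraries. The 2 libraries of a group lay close together, and the gap between the groups was far wider than the spread within them. Hspa8 rose from 827 ± 18.5 CPM to 1329 ± 42.4 CPM (SD, n = 2, log2 fold change 0.68, SE 0.087, edgeR adjusted p = 0.000318). This was at the 88.7th percentile of all tested genes. Its log2 fold change was 0.45 when libraries were scaled by total counts alone, which fell short of the fold threshold, with a median of -0.25 over all tested genes under that scaling. Of the 50-base stretches of Hspa8, 39.4% occur in other transcripts, foremost the pseudogene Gm15459 (34.6%).

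Hsph1 encodes HSP110, which releases ADP from HSP70 and is itself heat inducible. The gene (ENSMUSG00000029657.15, chr5:149614287-149636376, reverse strand) had 100.5 CPM and 133 CPM in the control libraries and 85.7 CPM and 119 CPM in the propranolol libraries. The groups overlapped, and replicate 2 was the higher library in each. The log2 fold change was -0.20 (95% confidence interval -0.58 to 0.17, edgeR adjusted p = 0.366), and it changed sign without control replicate 2 (0.036) and without propranolol replicate 1 (0.022). Without propranolol replicate 2 it was -0.42 with an adjusted p of 0.0218 in edgeR, still under the fold threshold. Hsph1 has a match to TTCNNGAA that begins 33 bases before a start site, shown in capitals as an example of a heat shock gene that carries the unit and was not called.
Hsph1, chr5:149636351-149636380, reverse strand: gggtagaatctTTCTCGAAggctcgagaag
Of these 30 bases, 26 lie in annotated exons. Relative to the inducible HSP70 (the sum of Hspa1a and Hspa1b), Hsph1 stood at 0.0432 and 0.0456 in control TAMs and at 0.0174 and 0.0179 in TAMs from treated mice, as a ratio of TPM. The ratio was thus lower in both propranolol libraries (exact permutation test, two-sided, p = 0.333, the lowest value possible with this number of libraries). Hsph1 has a GC content of 47.3%, compared to 58.95% and 58.1% in Hspa1a and Hspa1b, and the log2 fold changes of the 3 genes lay closer together after the GC correction (0.0081, 0.68 and 0.85).

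Dnajb1 encodes HSP40, the heat-inducible J-domain partner of HSP70 that also restrains HSF1, and Dnaja1 encodes a J-domain protein that assists HSP70 with many clients. Dnajb1 (ENSMUSG00000005483.10, chr8:83608193-83612653, forward strand) had 108 CPM and 117 CPM in the control libraries and 131 CPM and 144 CPM in the propranolol libraries. The groups did not overlap. The log2 fold change of 0.29 (SE 0.104, edgeR adjusted p = 0.0486) was under the fold threshold. Leaving out control replicate 1 or 2 gave an edgeR adjusted p of 0.186 or 0.0689. It was 0.121 without propranolol replicate 2 and 0.0625 with a stricter filter on low counts (at least 1 CPM in every library of a group), and DESeq2 gave 0.051. With total counts as the scale the log2 fold change was 0.053 (edgeR adjusted p = 0.717). Dnaja1 (ENSMUSG00000028410.13, chr4:40722150-40737149, forward strand) had 87.1 CPM and 93.2 CPM in the control libraries and 52.95 CPM and 56.3 CPM in the propranolol libraries. Both propranolol libraries lay far below both control libraries. Dnaja1 fell by 0.73 on the log2 scale (SE 0.106, edgeR adjusted p = 0.000621), but its log2 fold change was 0.014 after the GC correction (edgeR adjusted p = 0.942). The TPM ratio of Dnajb1 to Dnaja1 was 3.33 and 3.39 in control TAMs and 6.65 and 6.87 in TAMs from treated mice, and their GC content was 52.7% and 41.2%. After the GC correction their log2 fold changes lay closer together, at 0.098 (Dnajb1) and 0.014 (Dnaja1).

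The promoter of Dnaja1 has a match to GAANNTTC that begins 124 bases before a start site, whereas none of these letter patterns was found in the windows of Dnajb1. The match in the lowest of the 10 genes by fold change is shown in capitals.
Dnaja1, chr4:40722333-40722362, forward strand: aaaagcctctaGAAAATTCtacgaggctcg
All 30 bases lie in annotated exons. Dnaja1 shares 608 exonic bases with Smu1 on the opposite strand, which had 932 and 1551 counts in control TAMs and 2975 and 1035 counts in TAMs from treated mice. The counting parameters that the sources give name no strand option, so reads of this shared stretch cannot be told apart.

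Of the HSP90 genes, Hsp90aa1 was called without the GC correction, and Hsp90ab1 was not called. Hsp90ab1 encodes the constitutive cytosolic HSP90 and Hsp90aa1 the form that is more inducible by stress. Hsp90ab1 (ENSMUSG00000023944.14, chr17:45567775-45573271, reverse strand) had 1712 CPM and 1655 CPM in the control libraries and 1954 CPM and 1711 CPM in the propranolol libraries. The groups overlapped, and the log2 fold change was 0.12 (95% confidence interval -0.09 to 0.33, edgeR adjusted p = 0.321) and -0.11 with total counts as the scale. Hsp90aa1 (ENSMUSG00000021270.13, chr12:110690605-110702728, reverse strand) had 302 CPM and 286.5 CPM in the control libraries and 191 CPM and 198 CPM in the propranolol libraries. The groups were clearly apart. Hsp90aa1 fell by 0.60 on the log2 scale (SE 0.0943, edgeR adjusted p = 0.000912), only just past the fold threshold. It did not reach that threshold without control replicate 1 (-0.50) or without propranolol replicate 1 (-0.57), nor without a filter on low counts (-0.52), and after the GC correction the log2 fold change was -0.11 (edgeR adjusted p = 0.448). The TPM ratio of Hsp90aa1 to Hsp90ab1 was 0.134 and 0.132 in control TAMs and 0.0746 and 0.0883 in TAMs from treated mice (exact permutation test, two-sided, p = 0.333). The GC content of the genes was 43.7% and 51.0%. After the GC correction their log2 fold changes lay closer together, at -0.11 (Hsp90aa1) and 0.043 (Hsp90ab1), and neither was called. Of the 50-base stretches of Hsp90aa1, 41.8% also occur in the pseudogene Gm12346, compared to 3.44% of those of Hsp90ab1 in any other gene.

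Hspd1 (HSP60) and Hspe1 (HSP10) encode the barrel and the lid of the mitochondrial chaperonin and lie head to head on chromosome 1, where 112 exonic bases of the pair overlap on opposite strands. Their shared start region holds the only matches to a pattern of 3 heat shock units found in the 7 chaperones with an entry in the promoter table. There are 2 such matches, which overlap, so that the capitals span both. It serves as the promoter window of both genes, and the same 30 bases are therefore given on either strand, with the matches in capitals.
Hspe1, chr1:55088053-55088082, forward strand: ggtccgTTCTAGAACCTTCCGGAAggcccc
Hspd1, chr1:55088053-55088082, reverse strand: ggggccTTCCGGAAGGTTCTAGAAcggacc
All 30 bases lie in annotated exons. The letters searched, GAANNTTCNNGAA or TTCNNGAANNTTC, are each other's reverse complement and include the shorter patterns above. They occur in 0.466% of the 32851 promoters. The capitals begin 89 bases before the start site of Hspe1 and 144 bases before a start site of Hspd1. The promoter table holds a further start site of Hspd1, whose window has no match to these patterns. At least one of the shorter patterns was found in 6 of the 7 chaperones, all but Dnajb1. A gene counted if any of its windows matched either pattern, whereas the shares above are per promoter and per pattern. No share of all genes stands beside this count. The matches are also not independent, since Hspa1a and Hspa1b have nearly the same window and Hspd1 and Hspe1 share these bases.

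Hspd1 (ENSMUSG00000025980.14, chr1:55077835-55088243, reverse strand) had 126 CPM and 121 CPM in the control libraries and 97.1 CPM and 76.8 CPM in the propranolol libraries. The groups did not overlap, and propranolol replicate 2 was the lowest library. The log2 fold change was -0.50 (SE 0.123, edgeR adjusted p = 0.00887), under the fold threshold. Without propranolol replicate 1 it was -0.68 and passed that threshold, and without propranolol replicate 2 it was -0.32 with an adjusted p of 0.0504 in edgeR. Hspe1 (ENSMUSG00000073676.4, chr1:55088132-55091307, forward strand) had 86.9 CPM and 85.9 CPM in the control libraries and 90.4 CPM and 71.4 CPM in the propranolol libraries. Here the 2 propranolol libraries fell on either side of the control libraries. The log2 fold change was -0.09 (95% confidence interval -0.37 to 0.19, edgeR adjusted p = 0.593) and turned to 0.096 without propranolol replicate 2. The TPM ratio of Hspe1 to Hspd1 was 1.24 and 1.27 in control TAMs and 1.67 in both propranolol libraries, with a GC content of 45.5% and 46.8% (exact permutation test, two-sided, p = 0.333, again the lowest possible value).

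The fold changes of the chaperones were next set beside the GC content of the genes. Over all tested genes, fold changes were larger the richer the longest transcript was in GC (Spearman's rho 0.577 over 14681 genes, a description, since genes are not independent). Among 10 groups of genes by GC content, the median log2 fold change was -0.94 in the lowest group, from 30.8% to 41.2%, and 0.46 in the highest group, from 57.7% to 75.5%. The chaperones that were lower in propranolol libraries were poor in GC, with 41.2% in Dnaja1 and 43.7% in Hsp90aa1, and those of the inducible HSP70 were rich in GC, with 58.95% in Hspa1a and 58.1% in Hspa1b. Their groups by GC content had median log2 fold changes of -0.94 (Dnaja1), -0.59 (Hsp90aa1) and 0.46 (Hspa1a and Hspa1b). Hspa8 ran against this trend, with a GC content of 45.95%, a log2 fold change of 0.68 and a group median of -0.17.

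**Figure D2:**
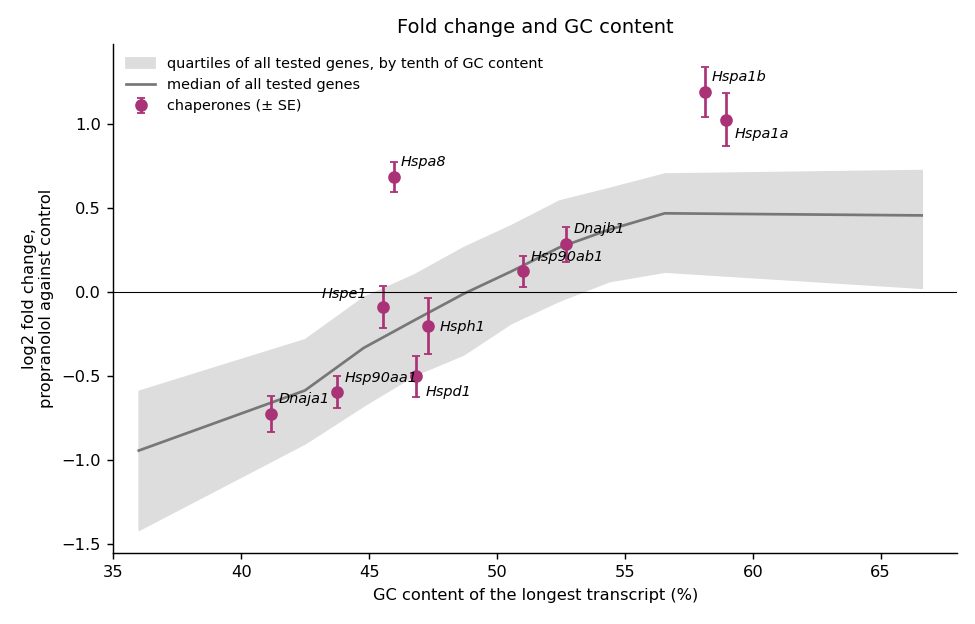
Log2 fold change of each chaperone (± SE) against the GC content of its longest transcript in percent, with the median (line) and quartiles (band) of all tested genes in 10 groups by GC content. Hspa1a, Hspa1b and Hspa8 lie above the band, Dnaja1 and Hsp90aa1 lie near the line at 41.2% and 43.7% GC, and the other chaperones lie inside or at the edge of the band.

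After a smooth trend with GC content had been removed from each library, 12.6% of all tested genes were changed (7.64% higher and 4.99% lower). Of the chaperones, 3 were higher and 0 were lower. Hspa8 had the largest log2 fold change of the set with this correction, 0.997 (SE 0.0923, edgeR adjusted p = 0.000317). Of the inducible HSP70 genes, Hspa1b had a log2 fold change of 0.85 (SE 0.135, edgeR adjusted p = 0.00269) and Hspa1a one of 0.68 (SE 0.144, edgeR adjusted p = 0.00911). Dnajb1, with 0.10 (edgeR adjusted p = 0.499), and Hspd1, with -0.26 (edgeR adjusted p = 0.134), no longer had an adjusted p under 0.05. Hsph1 (0.0081), Hsp90ab1 (0.043) and Hspe1 (0.25) had adjusted p values between 0.145 and 0.980 in edgeR. The median over the chaperones was 0.07 and that over all tested genes 0.09. What produced the GC trend was not tested.

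**Figure D3:**
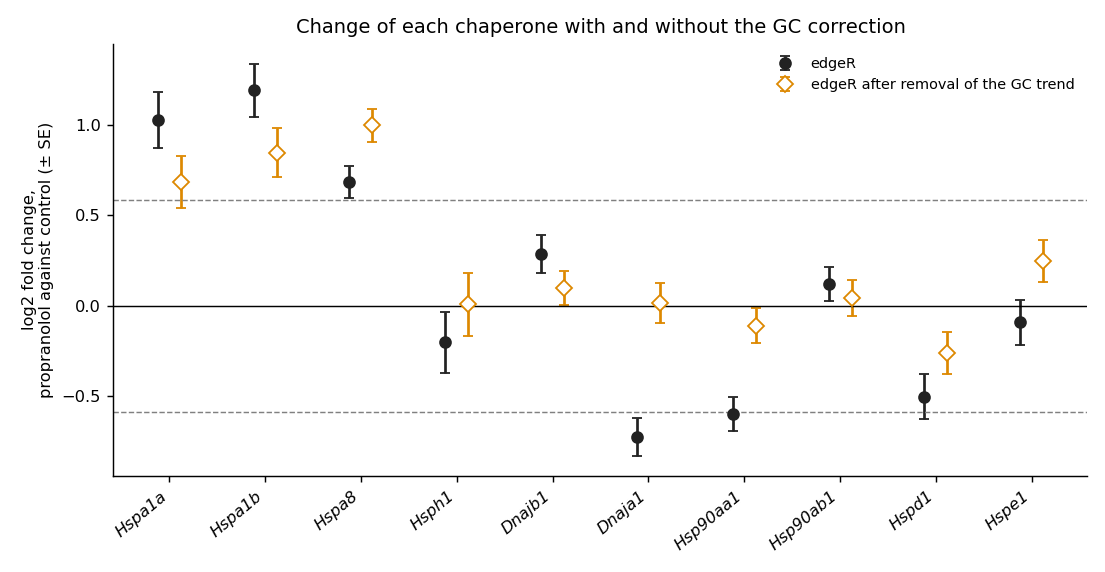
Log2 fold change (± SE) of each chaperone in edgeR, without correction (filled circles) and after removal of the GC trend (open diamonds), with dashed lines at a 1.5-fold change in either direction. Hspa1a, Hspa1b and Hspa8 lie above the upper line in both, whereas Dnaja1 and Hsp90aa1 lie below the lower line without the correction and near 0 with it.

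Levels of different chaperones were compared per transcript length, as TPM. Hsp90ab1 was the highest, with group means of 1866 TPM in control and 1721 TPM in propranolol libraries, which placed it between rank 42 and rank 66 of all genes. It was followed by Hspa1b (821 and 1592 TPM), Hspa8 (639 and 871.5 TPM) and Hspa1a (382 and 660.5 TPM). This order is by group mean, and in propranolol replicate 2 Hspa1b (1864 TPM) stood above Hsp90ab1 (1640 TPM). The ranges of Hsp90ab1, Hspa1b, Hspa8 and Hspa1a over the libraries overlapped from one to the next. A gap separated them from Hsp90aa1 (249 and 139.6 TPM), Hspe1 (195 and 154 TPM), Hspd1 (155 and 92.6 TPM) and Dnajb1 (117 and 121 TPM), whose ranges again overlapped in turn. Hsph1 (53.6 and 39.8 TPM) and Dnaja1 (34.8 and 17.9 TPM) were the lowest. Their annotated exons are long (7266 and 8629 bases, compared to 1474 in Hspe1), so that their place depends on this length. In CPM, Hsph1 (117 and 102) stood above Hspe1 (86.4 and 80.9), and Dnaja1 (90.2 and 54.6) stood above it in control libraries only. The order in TPM was the same in both groups except that Hspe1 stood above Hsp90aa1, and Dnajb1 above Hspd1, in the propranolol libraries.

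Summed over all 10 genes, the chaperones had 4275 and 4453 CPM in control TAMs and 5839 and 6340 CPM in TAMs from treated mice. The ratio of the means was 1.40 (log2 ratio 0.48, exact permutation test, two-sided, p = 0.333, which 2 libraries per group cannot go below), and the log2 ratio was 0.26 in TPM and 0.25 with total counts as the scale. As a share of all counts they took 0.460% and 0.486% in control TAMs and 0.534% and 0.590% in TAMs from treated mice. In CPM, most of the difference came from the inducible HSP70 genes. Hspa1a and Hspa1b made up 21.4% and 25.8% of the chaperone counts in control TAMs and 33.2% and 41.1% in TAMs from treated mice. The other 8 genes together had 3361 and 3306 CPM in control TAMs and 3901 and 3735 CPM in TAMs from treated mice, but 3300 and 3318 TPM compared to 3203 and 3111 TPM, so that their direction depended on the scale. The inducible HSP70 per Hspa8, as a ratio of TPM, was 1.64 and 2.12 in control TAMs and 2.25 and 2.89 in TAMs from treated mice, but Hspa8 is poorer in GC (45.95%) than Hspa1a and Hspa1b (58.95% and 58.1%), and after the GC correction its log2 fold change was the larger one, so that this direction turned. In bulk RNA of sorted cells, a change in the number of cells that hold a transcript and a change in the amount per cell cannot be told apart.

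Related genes are described by list, to be read against 12.2% higher and 15.6% lower among all tested genes without the GC correction and 7.64% higher and 4.99% lower with it, and the most abundant gene of a list is that with the highest mean CPM, which is not scaled to length. Of the other members of the HSP70 and HSP110 families, 2 of 8 tested genes were lower in propranolol libraries and 0 were higher (median log2 fold change -0.58). These were Hspa4l (-0.70), an HSP110 relative, and Hspa13 (-0.81), both chosen after their values were seen, with a GC content of 39.5% and 39.8%. After the GC correction 0 of the 8 were changed. Hspa4, the most abundant of them and a further HSP110 relative, had a log2 fold change of -0.47 (edgeR adjusted p = 0.00802), under the fold threshold, which it passed without propranolol replicate 1 (-0.61). Its log2 fold change was -0.36 without control replicate 1, -0.31 without propranolol replicate 2 and -0.21 after the GC correction (edgeR adjusted p = 0.181). Hspa2, a testis-enriched HSP70, had the highest value (0.58, edgeR adjusted p = 0.0428), just under the fold threshold. It was past that threshold without control replicate 2 (0.68) and with no filter on low counts (0.65). It did not pass the test after the GC correction (0.35, edgeR adjusted p = 0.225) or with total counts as the scale (0.35, edgeR adjusted p = 0.194). The DESeq2 Wald test gave an adjusted p of 0.0878. Hspa1l, which lies beside Hspa1a, had the lowest value (-1.36, edgeR adjusted p = 0.133) at under 1 CPM in each library.

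Of 10 further J-domain genes, 3 were lower and 0 were higher (median log2 fold change -0.40), and 2 were lower after the GC correction. Dnajb4, a close relative of Dnajb1, fell by 1.66 on the log2 scale (edgeR adjusted p = 0.000418), from 13.1 and 11.98 CPM in the control libraries to 4.28 and 3.53 CPM in the propranolol libraries, and its corrected log2 fold change was -1.02 (edgeR adjusted p = 0.00831). Dnajc5, the cysteine string protein and the most abundant of this list, had a log2 fold change of 0.20 (edgeR adjusted p = 0.112), and Dnajb5 had the highest value (0.51, edgeR adjusted p = 0.0127) without passing the fold threshold. Dnajc5 was at -0.033 with total counts as the scale. Dnajb5 was at 0.28 under that scale (edgeR adjusted p = 0.117) and at 0.24 after the GC correction (edgeR adjusted p = 0.207).

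Among 19 cochaperones of HSP70 and HSP90, 4 were higher and 4 were lower (median log2 fold change 0.20). Hspbp1, an exchange factor of HSP70, rose the most (log2 fold change 0.96, edgeR adjusted p = 3e-04), with 34.8 and 39.9 CPM in control TAMs and 76.5 and 69.45 CPM in TAMs from treated mice. Cdc37, which loads kinases onto HSP90 and was the most abundant of these genes, rose by 0.68 on the log2 scale (edgeR adjusted p = 0.000501), with 239.9 and 235 CPM in control TAMs and 396 and 365 CPM in TAMs from treated mice. Both stayed called after the GC correction (0.64 for Hspbp1 and 0.65 for Cdc37), where 3 of the 19 were higher and 0 were lower. Chordc1, an HSP90 partner with a GC content of 35.7%, had the lowest value (-1.12, edgeR adjusted p = 0.000247), and its corrected log2 fold change was 0.29 (edgeR adjusted p = 0.105).

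Hsf1, the main activator of heat shock genes, rose by 0.76 on the log2 scale (SE 0.119, edgeR adjusted p = 0.000854), from 38.8 and 43.1 CPM in the control libraries to 65.6 and 73.9 CPM in the propranolol libraries. Its corrected log2 fold change was 0.54 (edgeR adjusted p = 0.00761), under the fold threshold. Hsf2, a second heat shock factor, was lower (-0.73, edgeR adjusted p = 0.011), with a GC content of 36.2%, and higher after the GC correction (0.62, edgeR adjusted p = 0.0314). Hsbp1, which binds HSF1 and restrains it, was the most abundant of the 4 factors and regulators of this list, with a log2 fold change of 0.49 (edgeR adjusted p = 0.00493). It passed the fold threshold without control replicate 1 (0.66) and after the GC correction (0.67), but was at 0.26 with total counts as the scale. In all, 1 of the 4 was higher and 1 was lower (median 0.42), and 2 were higher and 0 lower after the correction.

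Of 10 small heat shock genes, 6 were tested, and 1 was higher and 1 was lower (median log2 fold change 0.10). Hspb1 (HSP27) rose by 0.97 on the log2 scale (SE 0.219, edgeR adjusted p = 0.0057), from 12.1 and 15.8 CPM in the control libraries to 21.9 and 33.9 CPM in the propranolol libraries, and it was called after the GC correction too (0.68, edgeR adjusted p = 0.0365). Its libraries stood in the same order as those of Hspa1a and Hspa1b, as did those of Hsf1 and of the neutrophil gene Csf3r. Hspb8, a small heat shock protein that works with Bag3, fell by 1.43 on the log2 scale (edgeR adjusted p = 0.0317) at low levels, from 6.94 and 2.95 CPM to 1.43 and 2.29 CPM. Control replicate 1 was its highest library, and the call was lost without that library (log2 fold change -0.64, edgeR adjusted p = 0.359) and without propranolol replicate 1 (-1.08, edgeR adjusted p = 0.0981). Hspb9 had the highest value without passing the test (1.19, edgeR adjusted p = 0.0625), at no more than 2.29 CPM, and it passed with no filter or the stricter filter on low counts (edgeR adjusted p = 0.0431 and 0.0451). It also passed with the replicate number as a block, but not after the GC correction (0.87, edgeR adjusted p = 0.198).

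The TRiC complex, the cytosolic chaperonin for actin and tubulin, had 1 of 8 subunit genes higher and 0 lower (median log2 fold change -0.02). Cct7 was both the highest and the most abundant of them, with a log2 fold change of 0.59 (edgeR adjusted p = 0.0017). This only call of the list was lost without propranolol replicate 1 (0.47), with total counts as the scale (0.36) and with the stricter filter on low counts (0.57). It was also lost with the replicate number as a block. Cct8 was the lowest (-0.30, edgeR adjusted p = 0.0773). After the GC correction 2 of the 8 were higher, and Cct8 stood at 0.22 (edgeR adjusted p = 0.166). Of 19 genes of chaperones and stress regulators of the endoplasmic reticulum, 3 were higher and 3 lower (median 0.06), and after the correction 2 were higher and 1 lower. Sdf2l1, a partner of the HSP70 of this compartment, rose by 0.91 on the log2 scale (edgeR adjusted p = 0.00018), but was just under the fold threshold after the correction (0.577). Dnajb9, a J-domain protein there, fell by 1.55 on the log2 scale (edgeR adjusted p = 0.000282) and was called after the correction too (-0.76). Calr (calreticulin), the most abundant, had a log2 fold change of 0.12 (edgeR adjusted p = 0.336) and of -0.12 with total counts as the scale.

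Among 9 further mitochondrial chaperones and proteases, 3 were higher and 0 lower (median log2 fold change 0.10), and 2 were higher after the GC correction. Clpp, the subunit of a matrix protease, rose by 1.06 on the log2 scale (edgeR adjusted p = 0.000242). Hspa9, the mitochondrial HSP70 and the most abundant, was at -0.03 (edgeR adjusted p = 0.826), and Clpx, which feeds proteins to Clpp, was the lowest (-0.33, edgeR adjusted p = 0.068). After the correction Hspa9 and Clpx stood at 0.28 and 0.079, and neither passed the test. Of the cochaperones, TRiC subunits, ER chaperones and mitochondrial genes, 4 were called with the correction but not without it, namely Ahsa1 (0.63), Cct3 (0.74), Hspa5 (0.71) and Grpel1 (0.63), so that the counts after the correction do not hold the same genes throughout.

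**Figure D4:**
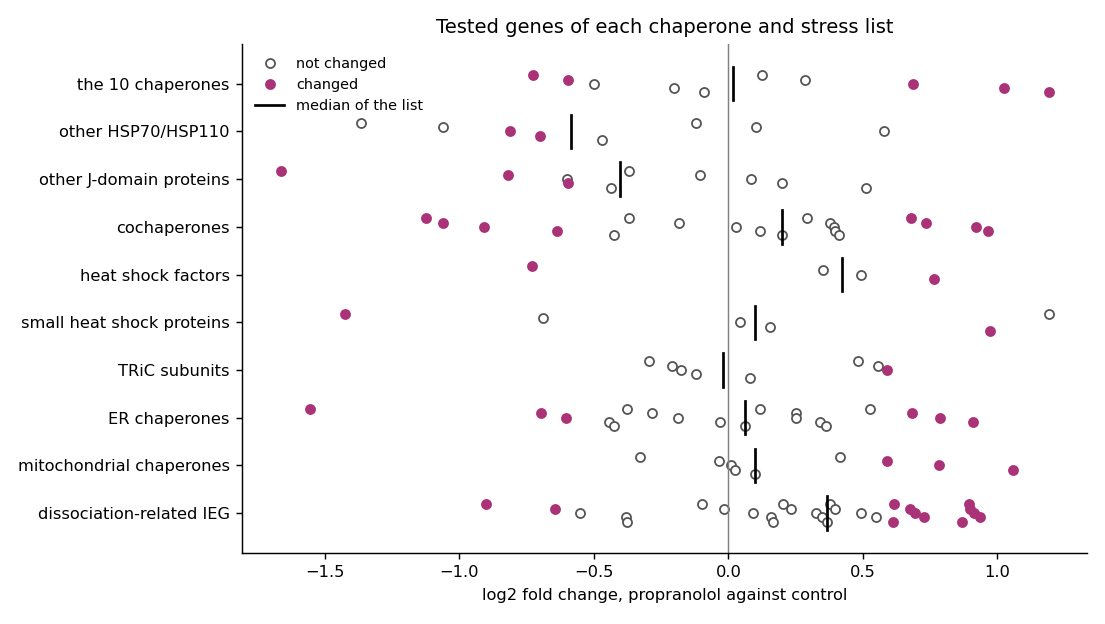
Log2 fold change of each tested gene in the set of 10 chaperones and in 9 lists of related genes, with filled circles for changed genes, open circles for genes that were not changed and a line at each list's median. Values of changed genes lie on both sides of 0 in the chaperones, the cochaperones, the heat shock factors, the small heat shock proteins, the ER chaperones and the immediate early genes (IEG).

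Immediate early genes, transcription factors and regulators that are switched on within minutes, are known to rise in cells during dissociation of a tissue, as heat shock genes are. Of 29 such genes, 10 were higher and 2 lower in propranolol libraries (median log2 fold change 0.36), and 1 was higher and 1 lower after the GC correction (median 0.09). Their GC content had a median of 54.6%. Nfkbia, the inhibitor of NF-kB, had the highest value (0.93, edgeR adjusted p = 0.000169), with 149.9 and 165 CPM in control TAMs and 289.6 and 312 CPM in TAMs from treated mice, and was called after the correction (0.74, edgeR adjusted p = 0.000962). Jund, an AP-1 subunit, had the lowest (-0.90, edgeR adjusted p = 0.000187), with 122 and 127 CPM in control TAMs and 67.8 and 65.2 CPM in TAMs from treated mice. Junb, a further AP-1 subunit and the most abundant of the list, was at 0.33 (edgeR adjusted p = 0.0232), under the fold threshold. Its corrected log2 fold change was 0.072 (edgeR adjusted p = 0.643).

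The summed level of these 29 genes was 5973 and 6886 CPM in control TAMs and 7422 and 8562 CPM in TAMs from treated mice. This is the same order of the 4 libraries as that of the summed Hspa1a and Hspa1b (914, 1147, 1938 and 2606 CPM). Among the other summed lists, all chaperones together and the neutrophil genes (148, 181, 309 and 325 CPM) stood in this order too, and the remaining lists did not. The share of all tested genes in this order was not counted. In TPM the sums of the immediate early genes were 7390, 8652, 7948 and 9417, so that the groups overlapped, whereas the inducible HSP70 had 1050, 1355, 1878 and 2628 TPM and did not overlap. The part of dissociation and sorting in the HSP70 difference was not tested.

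**Figure D5:**
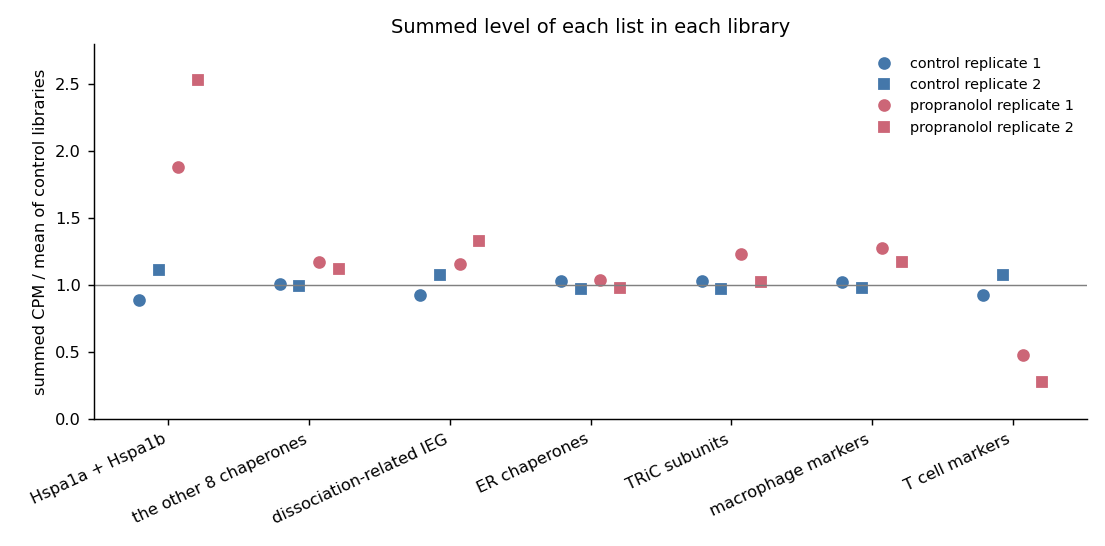
Summed CPM of Hspa1a and Hspa1b, of the other 8 chaperones, of 3 related lists and of macrophage and T cell marker genes in each library, divided by the mean of the 2 control libraries. The inducible HSP70 reaches 1.88 and 2.53 in the propranolol libraries, the immediate early genes 1.15 and 1.33, the macrophage markers 1.28 and 1.17, the other 8 chaperones 1.17 and 1.12, the TRiC subunits 1.23 and 1.03, the ER chaperones 1.03 and 0.977 and the T cell markers 0.474 and 0.272.

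Marker genes of other cell types also differed between the groups in which the chaperones were compared. The counts after the GC correction differ for some of these lists and are given with each. All 6 of 6 NK cell genes were lower, and 4 after the correction (summed level 137 and 141 CPM in the control libraries, 53.4 and 27.3 CPM in the propranolol libraries, with Prf1 the most abundant), as were 6 of 7 T cell genes with and without it (202 and 235 CPM, then 103 and 59.4 CPM, with Cd8a the most abundant). Of 6 fibroblast and tumor cell genes 4 were lower, with Col3a1 the most abundant (1292 and 423 CPM, then 211 and 225 CPM). After the correction 4 were lower too, but Dcn lost its call (-0.87) and Pdgfrb gained one (-1.06), so that 3 collagen genes were lower both ways. Of 6 tested neutrophil genes 4 were higher, and 5 after the GC correction, with Csf3r the most abundant (log2 fold change 0.56, under the fold threshold, but past it at 0.80 without control replicate 2, 0.67 without propranolol replicate 1 and 0.63 with no filter on low counts) and a summed level of 148 and 181 CPM in control TAMs and 309 and 325 CPM in TAMs from treated mice. After the correction Csf3r stood at 0.30 (edgeR adjusted p = 0.129), and the gene that gained a call was Mmp8 (1.18, edgeR adjusted p = 0.0215). The 3 neutrophil genes below the filter had at most 17 counts in a library. Over the libraries in the order used above, these were 0, 2, 17 and 8 counts for Ly6g, 0, 6, 1 and 1 for Camp, and 7, 7, 15 and 3 for Ngp. Of 10 macrophage genes 1 was higher and 0 were lower, with a summed level of 20030 and 19180 CPM in control TAMs and 25070 and 22940 CPM in TAMs from treated mice, and Lyz2 the most abundant (5881 and 5219 CPM, then 7558 and 5953 CPM). The gene called was Csf1r (log2 fold change 0.59), which was under the fold threshold after the correction (0.32), where Mrc1 was called instead (0.33 without and 0.85 with the correction). Of 5 dendritic cell genes 2 were lower, and 1 after the correction (sum 26.6 and 27.5 CPM, then 17.1 and 15.5 CPM, with Ccr7 the most abundant). Of 3 tested endothelial genes 1 was higher, and 0 after the correction (sum 42.6 and 41.0 CPM, then 56.2 and 49.0 CPM, with Pecam1 the most abundant), and of 2 tested B cell genes 1 was higher and 1 lower, and 0 were changed after the correction (sum 9.90 and 13.2 CPM, then 20.2 and 18.6 CPM, with Cd79b the most abundant). These sums are given over all genes of each list. The part of these cells in the level of any chaperone was not tested.

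The mean profile of the 10 chaperones over the 4 libraries was nearly flat, since increases and decreases offset each other. On log2 CPM centered for each gene it ran from -0.11 in control replicate 1 over -0.00418 and 0.02 to 0.10 in propranolol replicate 2. Of the genes outside the lists, 8051 had at least 10 CPM in every library, and those with profiles close to it included Gapvd1, Arih2, Akap8 and Zmym3, at Euclidean distances from 0.00774 to 0.0298. Their fitted log2 fold changes lay between 0.11 and 0.13, so that they resemble the average of the set and not the HSP70 genes.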

How the data were processed

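RNA sequencing of FACS-sorted TAMs was re-analyzed for 4 libraries, 2 per group. The values are the counts that the authors deposited, whole numbers per gene without normalization. Alignment to mm10 was done by the authors with STAR 2.7.1a, followed by removal of alignments of low quality (SAMtools 1.9) and counting over the exons of GENCODE genes (featureCounts 1.6.4). The annotation release and a strand option are not given in the sources used here. Columns were matched to libraries by the number in the labels, and 0 columns were left out.

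The counts were analyzed with R 4.3.3, edgeR 4.0.16 (TMM factors, filterByExpr at a minimum count of 10, quasi-likelihood test without covariates, Benjamini-Hochberg adjustment over 14688 genes), limma 3.58.1 and DESeq2 1.42.0. Library depth, from 13798249 to 39818103 counts, sets the precision of low genes. CPM used TMM-scaled library sizes, and TPM the exon length in GENCODE M21 on GRCm38, which gave a symbol to 54079 genes. For the GC correction, the dependence of each library on GC content was fitted as a natural spline (5 degrees of freedom) and taken out as an offset. Standard errors came from the coefficient and the F statistic. Promoter sequences (RefSeq, GRCm38.p6) were used for 7 of the 10 chaperones (not Hspa8, Hsp90aa1 and Hsp90ab1).

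The 10 chaperones and all gene lists were chosen with earlier results of these data known. Named genes were the 10 chaperones, the highest, the lowest and the most abundant gene of each related list, Hsf1, the sort markers, the most abundant gene of each marker list and the 5 genes of nearest profile, of which 1 is not reported here. As alternatives, scaling used DESeq2 size factors or total counts, the filter was dropped or set to 1 CPM, libraries were left out singly, replicate number entered as a block (with GC correction too), DESeq2 and limma-voom replaced edgeR, the threshold was a log2 fold change above 1.5, and Hspa1a and Hspa1b were summed. The steps were tested on simulated data. Other assays of the study were not analysed here.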

Additional observations from a re-analysis of the deposited data

How the results depend on the processing

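With 2 libraries per group, an exact permutation test of a single value cannot give a p below 0.333, and calls rest on the spread that edgeR shares across genes. Where 1 library of a group was left out, the spread of the remaining one was taken from the other group. The GC correction lowered the changed genes from 4084 to 1855 (1122 higher, 733 lower), and both the changed chaperones (from 5) and those with an adjusted p under 0.05 at any fold (from 7) to 3. A required log2 fold change above 1.5, the cutoff in the methods of the study, left 728 genes (61 higher, 667 lower) and 0 chaperones. The results of the study give the cutoff as 1.5-fold. Total counts as the scale gave 4106 genes, 14.9% of them higher against 44.0% with TMM, and 2 chaperones higher and 3 lower, since Hspa8 (0.45) lost its call and Hspd1 (-0.74) gained one. Under this scale Cdc37 (0.45), Hsf1 (0.53), Cct7 (0.36) and Cd79b (0.54) also lost their calls, and Hspa4 (-0.70) gained one. The higher share was 60.5% with the GC correction, 55.5% with block and GC correction and 54.4% without control replicate 1. The log2 ratio of the summed chaperones was 0.48, compared to 0.26 in TPM and 0.25 with total counts. With a library left out, the ranges were 3615 to 4330 changed genes, 4 to 5 changed chaperones, 6 to 7 at any fold and 0.42 to 0.54 for the summed level. The other scalings, filters and tests left the counts of changed chaperones at 4 or 5.

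The replicate numbers are shared by the groups in the labels without a stated meaning. Deviations of same-numbered libraries correlated at r = 0.169 over 14688 genes, and 2 pairs are too few to show a pairing. With the replicate number as a block, 4362 genes and 5 chaperones were changed and 7 chaperones had an adjusted p under 0.05 in edgeR. The block changed the call of 3 named genes. Cct7 (0.58) lost the fold threshold, and Hspa2 (0.585, adjusted p = 0.0323 in edgeR) and Hspb9 (1.23, adjusted p = 0.0431 in edgeR) were called. Block and GC correction together gave 2128 genes, 3 chaperones and 4 at any fold.

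Of 698 comparisons of a named gene's log2 fold change with an alternative, 624 kept direction and call, 21 lost the call, 16 gained one and 37 changed sign. The sign changed under the GC correction, and with the block added, for Hsph1 (0.0081 and 0.011), Dnaja1 (0.014 and 0.017), Hspe1 (0.25 and 0.24), Chordc1 (0.29 and 0.29), Hsf2 (0.62 and 0.63), Cct8 (0.22 and 0.22), Clpx (0.079 and 0.079), Hspa9 (0.28 and 0.28), Itgam (0.025 and 0.019) and Zmym3 (-0.084 and -0.083). Total counts turned Hsp90ab1 (-0.11), Dnajc5 (-0.033), Calr (-0.12), Adgre1 (-0.050), Gapvd1 (-0.12), Arih2 (-0.11), Akap8 (-0.13) and Zmym3 (-0.10). Without a filter Hspa9 (0.038) and Itgam (0.014) turned. Leaving out a library turned Hsph1 (from -0.42 to 0.036, above 0 without control replicate 2 or propranolol replicate 1), Hspe1 (from -0.27 to 0.096, above 0 without propranolol replicate 2), Hspa9 (from -0.17 to 0.12) and Itgam (from -0.18 to 0.085), the last 2 above 0 without control replicate 1 or propranolol replicate 2. Apart from Dnaja1, Chordc1 and Hsf2, genes whose sign changed were not called in the reported fit. The causes of these differences were not tested.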
